A study of Mus musculus with 90 samples.

Results

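Cytochrome c oxidase, complex IV of the mitochondrial respiratory chain, passes electrons from cytochrome c to oxygen and pumps protons across the inner mitochondrial membrane. Its catalytic core is encoded in mitochondrial DNA, and around it sit small nuclear-encoded subunits, several of which exist as pairs of paralogues with different tissue distributions. Cox7a1, Cox8b and Cox6a2 encode the forms of subunits VIIa, VIII and VIa known from heart and skeletal muscle, with Cox7a1 and Cox8b known also from brown fat, while Cox7a2, Cox8a and Cox6a1 encode the general forms. Cox4i1 encodes the general form of subunit IV, and Cox4i2 an alternative form known for a role in oxygen sensing in the lung and carotid body. These 8 genes were taken by name from the count files of the series. All 8 had a row in each of the 90 files, out of 32697 gene rows, and all 8 passed the low-count filter in every tissue.

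RNA came from brown adipose tissue (BAT), inguinal white adipose tissue (iWAT), a limb muscle spelled Gastrognemius in the labels (here muscle) and hypothalamus. The donors were male mice, either wild type (WT) or homozygous for loss of uncoupling protein 1 (UCP1 KO), of fibroblast growth factor 21 (FGF21 KO) or of both (dKO). UCP1 is the carrier through which brown-fat mitochondria turn proton flow into heat, and FGF21 is a circulating metabolic hormone. Every group shared 1 housing history: birth and weaning at 30 °C, then from an age of 10 to 12 weeks 12 days at 18 °C and 3 weeks at 5 °C, with food withdrawn shortly before tissue collection, so every comparison is between cold-exposed mice. Each genotype had 6 libraries per tissue, except that FGF21 KO had 5 in every tissue, WT had 5 in BAT and dKO had 5 in hypothalamus. The strain is not given in the sources used here, and the labels do not tie libraries to mice, so p-values measure the spread between labelled samples. Total counts ran from 18.1 to 69.9 M per library, with a median of 46.0 M. The mean log2 level of 7 brown adipocyte genes was 8.93 to 9.30 in WT BAT and 4.99 to 6.88 in WT iWAT, each scaled within its tissue. In BAT the Ucp1 counts of every UCP1 KO and dKO library (49247 to 76069) lay below those of every library with intact UCP1 (250180 to 476864). In iWAT they did not, at 42734 to 64826 in UCP1 KO against 5647 to 58105 in WT, and counts per gene cannot show which exons remain, so Ucp1 does not check the labels there. In iWAT, Fgf21 held 9 to 26 counts in WT and 0 to 1 in FGF21 KO, and in BAT 8 to 67 against 0 to 13, ranges that overlap. In dKO it held at most 4 counts in fat against 302 to 2137 in UCP1 KO, while in muscle and hypothalamus no group exceeded 4 and Fgf21 checks nothing.

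The 8 genes lie on 6 chromosomes of the mouse genome build GRCm38. Cox7a1 (chr7:30184144-30186078, plus strand, 4 exons), Cox8b (chr7:140898945-140900446, minus strand, 2 exons) and Cox6a2 (chr7:128205435-128206387, minus strand, 3 exons) share chromosome 7 with Fgf21, at distances of 15.4, 95.3 and 82.6 Mb. Cox4i1 (chr8:120668222-120674207, plus strand, 5 exons) lies 37.4 Mb from Ucp1. Cox7a2 (chr9:79755361-79759878, minus strand, 4 exons), Cox8a (chr19:7215153-7217616, minus strand, 2 exons), Cox6a1 (chr5:115345642-115348981, minus strand, 3 exons) and Cox4i2 (chr2:152754173-152765037, plus strand, 5 exons) lie on chromosomes without a targeted gene. Within a pair the coding sequences were identical at 65.8% of aligned bases for Cox7a1 and Cox7a2, 57.6% for Cox8b and Cox8a, 66.6% for Cox6a2 and Cox6a1 and 69.6% for Cox4i2 and Cox4i1. The longest identical stretch in these coding alignments was 10 to 14 nt, far under the 100 bp read length. A search with each whole annotated transcript found no match of at least 95% identity over 100 nt in its partner. Cox4i1 overlaps Emc8 on the opposite strand and Gm20388 on the same strand, and Cox6a2 overlaps Itgad on the opposite strand. The libraries keep strand, but the strand setting of the counting is not given in the sources used here, so counts of Cox4i1 and Cox6a2 could hold reads of these neighbours.

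The promoters of the subunit VIIa and VIII pairs are shown because in these pairs both partners rose in iWAT without UCP1, the muscle-type form further than the general one. Each run is the 200 bases before the RefSeq start in GRCm38.p6, read 5′ to 3′ on the strand of the gene, with the only E-box (CANNTG, a motif bound by basic helix-loop-helix factors) in capitals.
Cox7a1, chr7:30183971-30184170, plus strand: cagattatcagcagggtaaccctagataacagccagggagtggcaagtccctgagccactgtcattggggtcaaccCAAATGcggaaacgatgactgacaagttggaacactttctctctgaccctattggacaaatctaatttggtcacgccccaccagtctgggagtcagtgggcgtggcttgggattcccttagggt
Cox7a2, chr9:79759854-79760053, minus strand: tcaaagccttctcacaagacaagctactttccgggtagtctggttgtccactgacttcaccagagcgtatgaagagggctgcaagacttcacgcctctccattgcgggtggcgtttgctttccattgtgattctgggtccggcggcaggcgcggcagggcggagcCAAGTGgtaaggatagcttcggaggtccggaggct
Cox8b, chr7:140900447-140900646, minus strand: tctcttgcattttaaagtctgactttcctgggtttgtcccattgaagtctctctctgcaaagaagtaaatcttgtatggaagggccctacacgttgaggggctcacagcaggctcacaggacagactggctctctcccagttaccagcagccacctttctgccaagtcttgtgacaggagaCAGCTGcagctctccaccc
Cox8a, chr19:7217617-7217816, minus strand: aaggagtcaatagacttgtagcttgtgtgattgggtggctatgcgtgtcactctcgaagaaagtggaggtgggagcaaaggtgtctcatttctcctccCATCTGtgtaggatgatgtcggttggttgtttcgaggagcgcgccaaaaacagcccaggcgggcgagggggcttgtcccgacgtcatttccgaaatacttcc
The E-box began 124 bases before the start of Cox7a1, 35 before that of Cox7a2, 19 before that of Cox8b and 102 before that of Cox8a, on either strand of search. It is a common motif, held by 58.2% of 32851 RefSeq promoter windows of the same length. AAGGTCA (the core of the estrogen-related receptor element, in 3.20% of windows) and AGGTCA (a nuclear receptor half-site that lies within it, in 11.4%) occurred in none of the 5 member windows that the table held. CCGGAAG (the core bound by ETS factors, in 6.30% of windows) occurred once, in Cox6a1. CpG dinucleotides, counted after the letters had been seen, numbered 4 in the Cox7a1 window and 1 in that of Cox8b against 12 in Cox7a2, 11 in Cox8a and 23 in Cox6a1, and the median window held 5. In these 5 windows the muscle-type forms thus had fewer CpGs than the general forms. Cox6a2, Cox4i1 and Cox4i2 are named only.

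In WT the muscle-type forms of subunits VIIa and VIII made up most of their pair in BAT and muscle, less in iWAT and very little in hypothalamus. Levels are compared between genes as reads per kb of the annotated transcript, and shares as the percent of the reads per kb of both paralogues. Cox7a1 made up 66.3% ± 1.09 of its pair in BAT (SD, n = 5), 68.8% ± 0.674 in muscle, 28.4% ± 11.6 in iWAT and 2.68% ± 0.429 in hypothalamus (n = 6 each). Cox8b made up 67.4% ± 0.745 in BAT, 96.2% ± 0.170 in muscle, 46.5% ± 5.45 in iWAT and 0.698% ± 0.296 in hypothalamus. The iWAT libraries spread far more than the others, from 19.4% to 47.2% for Cox7a1 and from 40.3% to 55.4% for Cox8b. Cox6a2 made up 97.2% ± 0.325 of its pair in muscle but only 3.03% ± 6.04 in BAT, 1.19% ± 2.48 in iWAT and 4.35% ± 0.622 in hypothalamus, so it was a muscle form and not a brown-fat form in these libraries. Cox4i2 stayed at 0.311% to 0.465% of its pair in the 4 tissues. Its data go against a label of muscle or brown-fat form, and it is called here by its name.

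**Figure D1:**
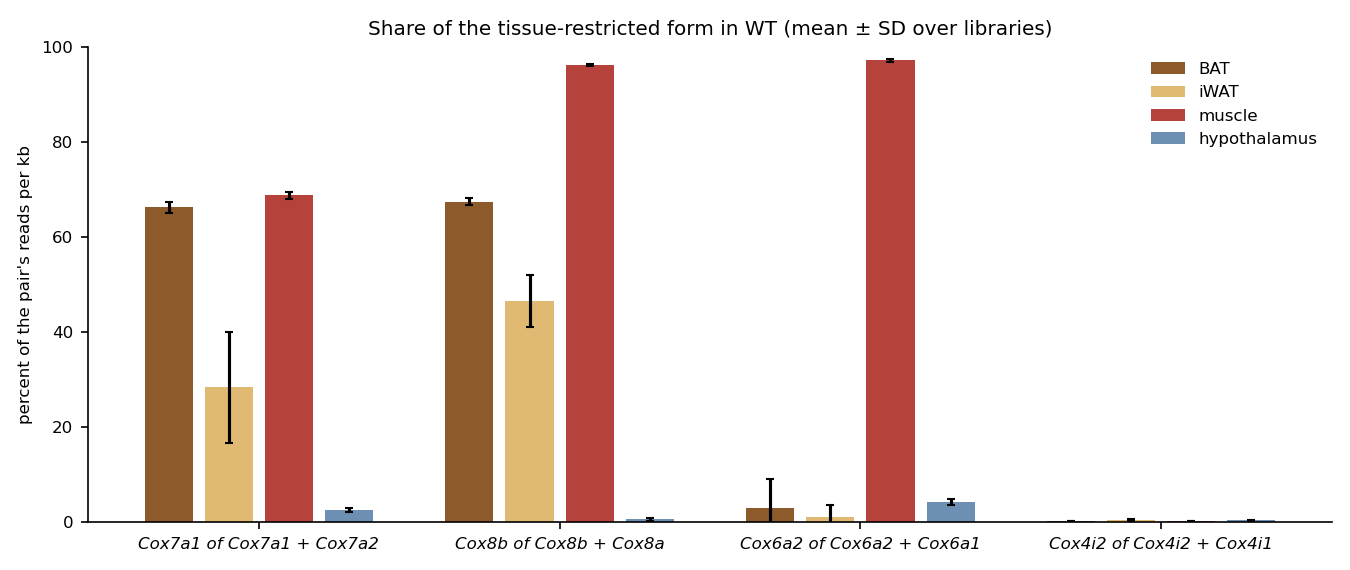
Share of Cox7a1, Cox8b, Cox6a2 and Cox4i2 in the reads per kb of their pairs (percent, vertical axis) in the WT libraries of BAT (n = 5), iWAT, muscle and hypothalamus (n = 6 each). Bars are means and lines SD. Cox8b and Cox6a2 reach 96.2% and 97.2% in muscle, Cox7a1 and Cox8b lie near 66.3% and 67.4% in BAT, and Cox4i2 is barely visible.

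Across WT tissues, 7 of the 8 genes were highest in BAT and Cox6a2 was highest in muscle, on 1 scale of library-size-scaled counts (CPM, with TMM factors over the 23 WT libraries). Cox7a1 stood at 534 ± 49.0 CPM in BAT (SD, n = 5), 255 ± 16.9 in muscle, 43.7 ± 23.7 in iWAT and 1.03 ± 0.160 in hypothalamus (n = 6 each), with no overlap between neighbours in this order. Cox8b followed the same order, at 858 ± 89.9, 389 ± 18.6, 160.2 ± 40.4 and 0.408 ± 0.177 CPM. The general forms Cox8a and Cox6a1 took another order, with muscle last. Cox8a stood at 634 ± 68.8 CPM in BAT, 280.0 ± 61.7 in iWAT, 90.3 ± 4.14 in hypothalamus and 23.5 ± 1.38 in muscle. Cox6a1 stood at 892 ± 114, 279 ± 67.3, 71.5 ± 5.01 and 16.9 ± 2.04 CPM in these tissues. Neighbours in these orders differed with adjusted p from 1.81e-18 to 0.00048 (edgeR quasi-likelihood test, Benjamini-Hochberg over 18545 genes), against a background in which 67.0% to 87.1% of all genes differed between any 2 of the tissues.

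Cox7a2 and Cox4i2 did not separate muscle from iWAT. Cox7a2 stood at 456 ± 36.1 CPM in BAT, 194 ± 10.8 in muscle, 174 ± 33.6 in iWAT and 63.2 ± 0.906 in hypothalamus, and the difference of muscle and iWAT missed the threshold (adjusted p = 0.119). Cox4i2 stood at 4.32 ± 0.403, 2.63 ± 0.0592, 2.45 ± 0.646 and 0.887 ± 0.180 CPM, again with muscle and iWAT indistinct (adjusted p = 0.549). Cox4i1, at 1427 ± 112 CPM in BAT, 747 ± 35.5 in muscle, 579.7 ± 128 in iWAT and 196 ± 5.09 in hypothalamus, had overlapping ranges in muscle and iWAT (adjusted p = 0.00277). The order of iWAT and muscle turned for Cox7a2, Cox4i1 and Cox4i2 when libraries were scaled by their totals alone, with iWAT then higher by 0.70, 0.49 and 0.78 on the log2 scale. Cox6a2 stood at 706 ± 50.5 CPM in muscle, 30.0 ± 58.5 in BAT, 3.88 ± 0.709 in hypothalamus and 3.53 ± 7.37 in iWAT. Its second place in BAT rested on WT replicate 5, which carried 134.5 CPM: without it the log2 difference of BAT and iWAT fell from 3.07 to 0.097 and that of BAT and hypothalamus from 2.95 to -0.028. Without iWAT WT replicate 4, Cox6a2 was lower in iWAT than in hypothalamus by a log2 difference of -2.85 (adjusted p = 0.0112).

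**Figure D2:**
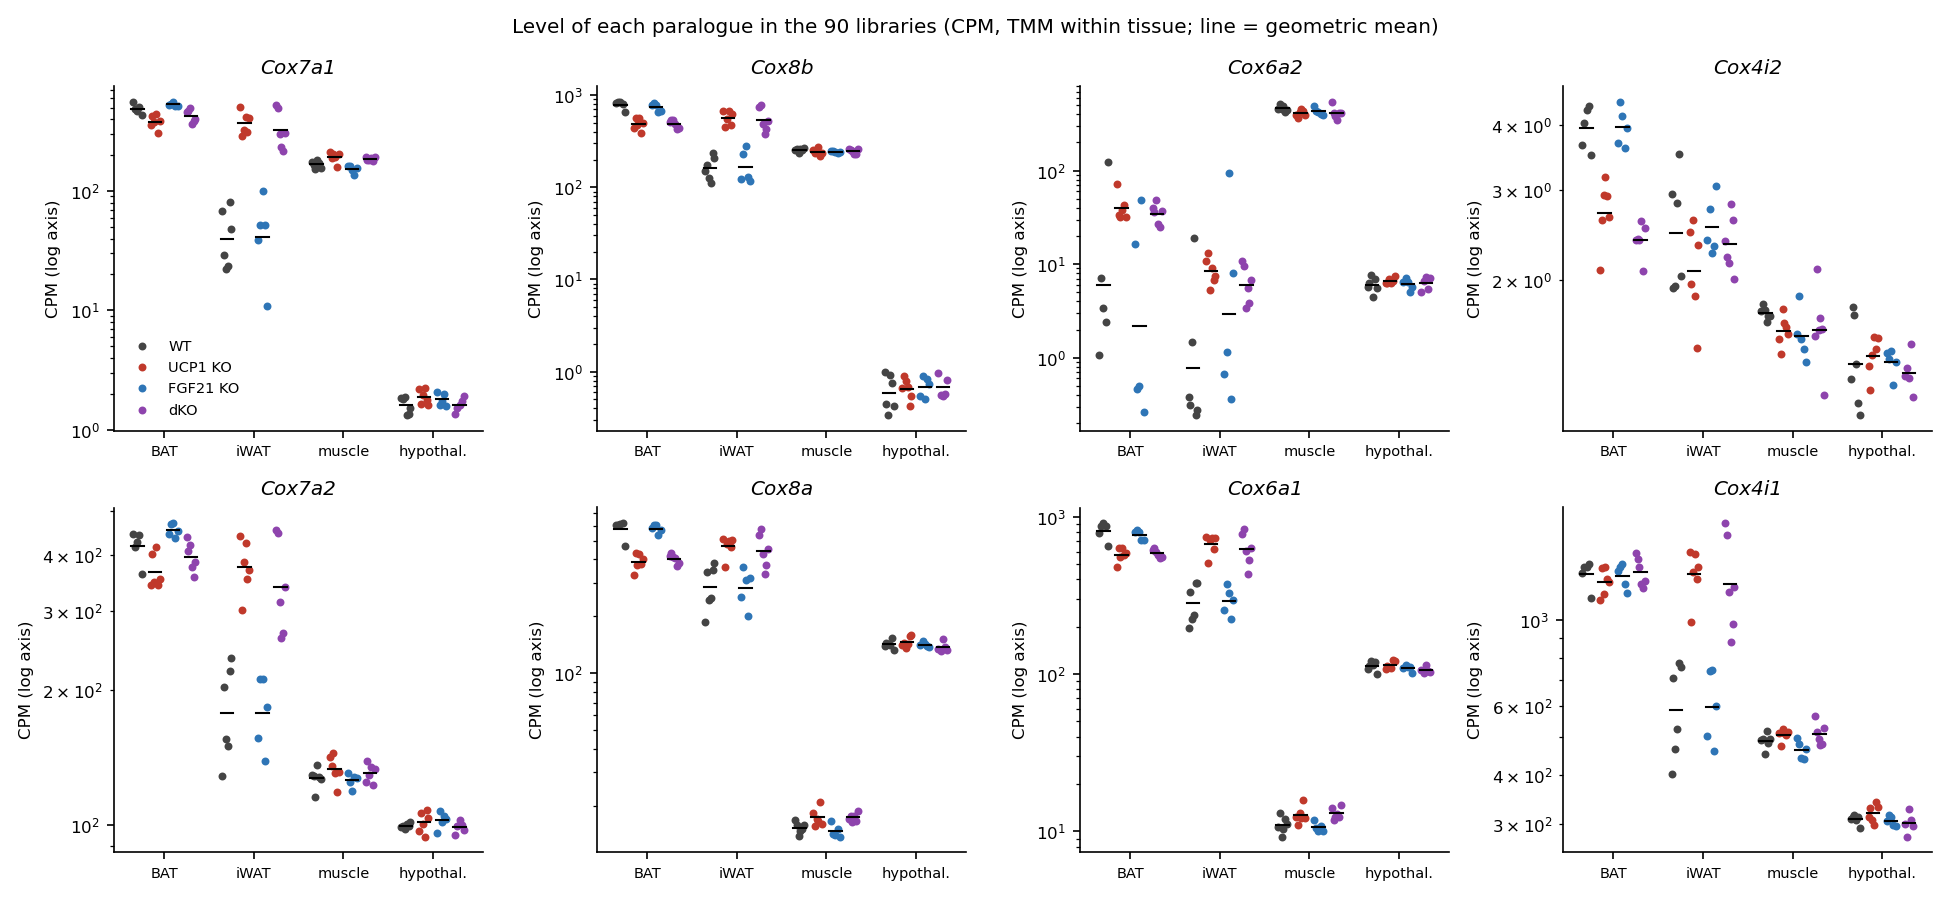
Level of each paralogue (CPM, TMM within a tissue, log axis) in the 90 libraries, by tissue and genotype. Points are libraries and lines geometric means. The upper row holds Cox7a1, Cox8b, Cox6a2 and Cox4i2 and the lower row their general partners. In iWAT the UCP1 KO and dKO points of Cox7a1 and Cox8b lie above all WT and FGF21 KO points, in BAT the UCP1 KO and dKO points of Cox8b and Cox8a lie below them on this scale and on that of library totals their means are lower too, and Cox6a2 in fat spreads widely in WT and FGF21 KO.

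The first comparison asks how the paralogues differ with and without UCP1 in the cold. In iWAT of UCP1 KO mice, 6 of the 8 genes rose and none fell. The muscle-type forms of subunits VIIa and VIII rose further than their general partners: Cox7a1 rose 8.31-fold and Cox8b 3.42-fold, Cox7a2 2.08-fold and Cox8a 1.61-fold. Cox6a1 rose 2.31-fold and Cox4i1 2.17-fold, while Cox4i2 and Cox6a2 did not pass the test. All genes tested in iWAT set a high background, with 22.3% of 16751 called higher, 24.0% called lower and 46.3% called in either direction (adjusted p under 0.05, edgeR quasi-likelihood test). The median log2 fold change was 1.16 over the 8 genes and -0.13 over all genes.

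Cox7a1, the VIIa form of muscle and brown fat, ran from 22.2 to 80.2 CPM in WT iWAT (median 38.8) and from 292 to 501 CPM in UCP1 KO (median 367). The lowest UCP1 KO library thus lay far above the highest WT library, and the log2 fold change was 3.05 (SE 0.42, adjusted p = 7.34e-06). Its partner Cox7a2 ran from 129 to 235 CPM in WT (median 179) and from 301 to 441 CPM in UCP1 KO (median 378), again without overlap (a log2 difference of 1.06, SE 0.17, adjusted p = 3.92e-05). The WT libraries did not keep 1 order in both genes: replicate 5 was highest in Cox7a1 and replicate 6 in Cox7a2.

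Cox8b, the VIII form of muscle and brown fat, ran from 110.2 to 234 CPM in WT iWAT (median 162) and from 451 to 671 CPM in UCP1 KO (median 583). The groups did not overlap, and the log2 fold change was 1.78 (SE 0.25, adjusted p = 7.10e-06). Cox8a, the general form, ran from 185 to 383 CPM in WT (median 296) and from 364 to 512 CPM in UCP1 KO (median 489). Here the lowest UCP1 KO library fell below the highest WT library, and the log2 difference was 0.68 (SE 0.18, edgeR adjusted p = 0.00330).

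Cox6a1, the general VIa form, ran from 195 to 381 CPM in WT iWAT (median 285.5) and from 505 to 747 CPM in UCP1 KO (median 719.7), higher by 1.21 on the log2 scale (SE 0.19, adjusted p = 2.69e-05). Cox4i1, the general form of subunit IV, ran from 403 to 776 CPM in WT (median 618) and from 985 to 1491 CPM in UCP1 KO (median 1347), higher by 1.12 (SE 0.20, adjusted p = 9.43e-05). Neither pair of groups overlapped. Cox4i2 went the other way without passing the test, from 1.93 to 3.52 CPM in WT (median 2.43) against 1.48 to 2.61 CPM in UCP1 KO (median 2.16), at a log2 difference of -0.26 (SE 0.17, adjusted p = 0.211). The 6 rises were called in every single-library omission and also under library totals, where the median of all genes moved from -0.13 to -0.53, the share of calls that were higher fell from 3736 of 7759 to 2039 against 8921 lower, and Cox4i2 passed the test as lower (log2 fold change -0.67, adjusted p = 0.00492).

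Marker genes of several cell types were called in iWAT of UCP1 KO as well. Of all genes there, 22.3% were called higher, 24.0% lower and 46.3% in either direction. Of 7 brown adipocyte genes, 6 were higher in UCP1 KO, and their mean log2 CPM ran from 4.99 to 6.88 in WT and from 8.69 to 9.36 in UCP1 KO. The potassium channel gene Kcnk3, for example, went from 64.4 ± 27.9 to 359 ± 63.1 CPM (log2 fold change 2.48, SE 0.23, adjusted p = 5.86e-08, n = 6 each). Of 5 general adipocyte genes 2 were lower, led by Cfd, the adipsin gene (8014 ± 2997 CPM in WT and 1696 ± 864 in UCP1 KO), and 4 of 10 pericyte and smooth muscle genes were lower. Of 7 macrophage genes 5 were lower, and of 10 lymphocyte genes none was called although their mean log2 CPM ran from -0.51 to 6.68 in WT and from -0.12 to 5.70 in UCP1 KO. Without the libraries with high lymphocyte genes (WT replicates 1 to 4 and UCP1 KO replicates 2, 4 and 5), the log2 fold change was 2.75 for Cox7a1 (adjusted p = 0.0347) and 1.53 for Cox8b (adjusted p = 0.00509). The marker calls are with TMM factors and were not examined under library totals. The part of these markers in the paralogue changes was not tested beyond these fits. In bulk tissue, a change in the number of cells of a type and a change in RNA per cell cannot be told apart.

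In BAT of UCP1 KO mice, the paralogues did not follow the iWAT pattern: Cox8b and Cox8a were lower than in WT under either scaling, at 0.619-fold and 0.668-fold, and none was called higher with TMM factors. With TMM factors 6 of the 8 genes were called lower, beside 29.9% of 16032 genes called lower, 30.2% called higher and 60.1% called in either direction. The 6 lower calls do not all hold under library totals alone, where the median of all genes moved from -0.02 to 0.41 and the calls from 4836 higher and 4798 lower to 9904 higher and 1400 lower. There Cox8b and Cox8a remained lower (log2 fold changes -0.27 and -0.15, adjusted p = 0.00387 and 0.0329), Cox6a1 and Cox4i2 were no longer called (-0.08 and -0.11), and Cox7a1, Cox7a2 and Cox4i1 turned to 0.07, 0.24 and 0.37 (adjusted p = 0.383, 0.000493 and 3.30e-05).

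Cox8b in WT BAT stood at 812, 838, 849.5, 793 and 650.3 CPM, and in UCP1 KO from 391 to 569 CPM (median 486). Every UCP1 KO library lay below every WT library, the log2 difference being -0.69 (SE 0.10, adjusted p = 1.87e-06). Cox8a stood at 604, 603, 615, 619 and 471 CPM in WT and from 330.3 to 429 CPM in UCP1 KO (median 389), likewise without overlap (log2 fold change -0.58, SE 0.07, adjusted p = 4.21e-07). WT replicate 5 was the lowest WT library in both genes.

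Cox6a1 stood at 794, 869, 909.7, 878 and 649 CPM in WT BAT and from 482 to 635 CPM in UCP1 KO (median 581), without overlap (log2 fold change -0.51, SE 0.08, adjusted p = 1.15e-05, not called under library totals). Cox7a1 stood at 556, 484, 470.0, 509 and 437 CPM in WT and from 308 to 439 CPM in UCP1 KO (median 380.4). Its groups overlapped slightly, and the log2 fold change of -0.36 (SE 0.09, adjusted p = 0.00104) had the opposite sign under library totals. Cox7a2 stood at 444, 416, 427.5, 443 and 363 CPM in WT and from 343 to 416 CPM in UCP1 KO (median 349.9), an overlapping difference of -0.19 (SE 0.07, adjusted p = 0.0163) that also turned under library totals and was not called in a fit of the compared groups alone (adjusted p = 0.0532). Cox4i1 stood at 1314, 1362, 1362, 1385 and 1134 CPM in WT and from 1122 to 1361 CPM in UCP1 KO (median 1259), and was not called with TMM factors (-0.07, SE 0.07, adjusted p = 0.443).

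Cox4i2 in WT BAT stood at 3.67, 4.05, 4.28, 4.37 and 3.50 CPM, and in UCP1 KO from 2.09 to 3.17 CPM (median 2.78). The groups did not overlap, and the log2 fold change was -0.54 (SE 0.10, adjusted p = 9.37e-05; -0.11 and not called under library totals). These levels rest on 106 to 200 counts per library. Genes of vessel cells moved the same way with TMM factors, beside 29.9% of all genes called lower. Of 10 pericyte and smooth muscle genes 7 were called lower. Their mean log2 CPM ran from 5.33 to 5.78 in WT and from 5.00 to 5.27 in UCP1 KO. Of 7 endothelial genes 6 were called lower (6.52 to 7.01 against 6.44 to 6.64). Rgs5, a regulator of G protein signalling found in pericytes, stood at 542 ± 45.9 CPM in WT (n = 5) and 291 ± 28.4 in UCP1 KO (n = 6), a log2 difference of -0.90 (SE 0.08, adjusted p = 2.86e-09). All 7 macrophage genes were higher, beside 30.2% of all genes called higher. Their mean log2 CPM was 5.86 to 6.35 in UCP1 KO against 3.55 to 4.07 in WT. The complement gene C1qa stood at a log2 difference of 2.24 (SE 0.12). Of 10 lymphocyte genes 6 were higher, and of 5 general adipocyte genes 3 were lower, led by Adipoq (-1.31, SE 0.26). Of 7 brown adipocyte genes 5 were higher, opposite in sign to the members, led by Dio2 (1.76, SE 0.20), and 1, Ucp1, was lower. These marker calls were not examined under library totals, where the median of all genes moved from -0.02 to 0.41. The part of these cell types in the levels of Cox4i2 and the other members was not tested.

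The second comparison with and without UCP1, dKO against FGF21 KO, used other libraries and gave the same calls in both fat depots. In iWAT 6 of the 8 genes were higher, beside 16.8% of genes called higher, 20.5% lower and 37.3% in either direction: Cox7a1 by 2.77 on the log2 scale (SE 0.45, adjusted p = 7.97e-05), Cox8b by 1.68 (SE 0.26), Cox6a1 by 1.11 (SE 0.20), Cox4i1 by 1.06 (SE 0.21), Cox7a2 by 0.95 (SE 0.18) and Cox8a by 0.64 (SE 0.19). Cox7a1 stood at 39.1, 52.2, 100.5, 52.3 and 10.9 CPM in FGF21 KO and from 217 to 523 CPM in dKO (median 305.5), without overlap. FGF21 KO replicate 5, the lowest in Cox7a1, also held the fewest Ucp1 counts of the group (308, the others reaching 44141). The groups of Cox8a overlapped. Cox4i2 was not called (-0.11, SE 0.17, adjusted p = 0.629).

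In BAT the same contrast called 6 of 8 genes lower with TMM factors, beside 28.0% of genes called lower, 29.3% higher and 57.2% in either direction. Cox8b stood at 784, 824, 783, 664 and 679.6 CPM in FGF21 KO and from 433 to 539 CPM in dKO (median 497), without overlap (log2 fold change -0.61, SE 0.10, adjusted p = 1.19e-05). Cox8a differed by -0.53 (SE 0.07), Cox4i2 by -0.73 (SE 0.10) and Cox6a1 by -0.39 (SE 0.08). Under library totals Cox8b, Cox8a and Cox4i2 stayed lower, Cox6a1 was no longer called, and Cox7a1 and Cox7a2, at -0.31 and -0.19 with TMM factors, turned to 0.07 and 0.19. Cox4i1 moved from 0.04 to a called 0.41 on that scale.

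Markers moved in this contrast as well. Of all genes, it called 16.8% higher and 20.5% lower in iWAT, and 29.3% higher and 28.0% lower in BAT. In iWAT 13 of 14 skeletal muscle fibre genes were lower in dKO (median log2 difference -6.84), FGF21 KO replicate 3 being the library richest in them, and 6 of 7 brown adipocyte genes were higher. In BAT all 7 macrophage genes were higher and 7 of 10 pericyte and smooth muscle genes lower. These marker calls, too, are with TMM factors and were not examined under library totals. The part of these markers in the paralogue differences was not tested beyond fits with the fibre genes as a covariate, in which the other 7 members kept their side of the threshold.

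**Figure D3:**
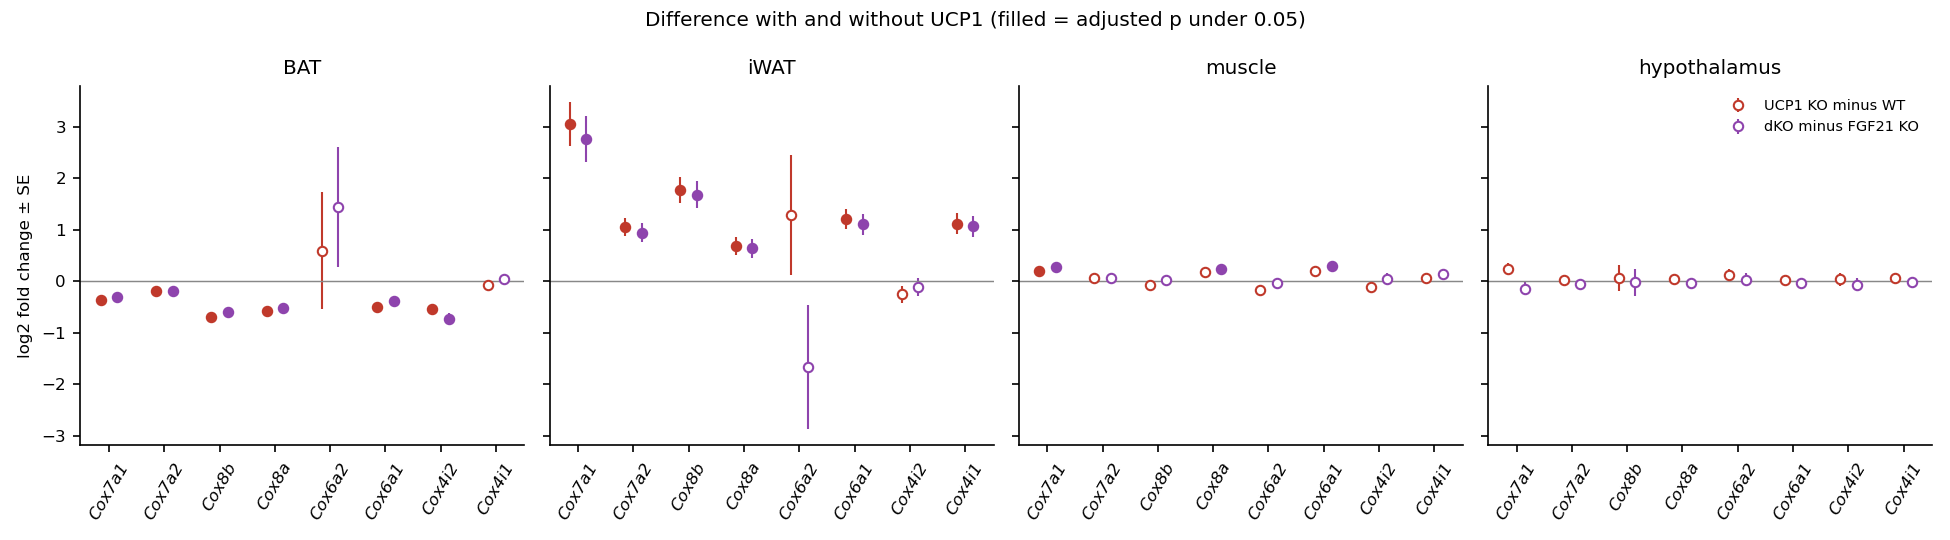
Log2 fold change (vertical axis, ± SE) of the 8 genes in each tissue for UCP1 KO minus WT and for dKO minus FGF21 KO, with TMM factors; filled points have an adjusted p under 0.05. Cox7a1 and Cox8b stand highest in iWAT (3.05 and 1.78, and 2.77 and 1.68), 6 genes are called below 0 in BAT in both contrasts, of which Cox7a1 and Cox7a2 turn above 0 when libraries are scaled by totals alone (as does Cox4i1, not called at -0.07, in the first), and Cox6a2 in fat has wide errors.

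Cox6a2, the muscle form of subunit VIa, gave the widest scatter in fat. In WT BAT it stood at 1.06, 7.11, 3.40, 2.39 and 124 CPM, and in UCP1 KO from 31.8 to 71.9 CPM (median 35.7). All UCP1 KO libraries lay above 4 of the 5 WT libraries and below replicate 5, and the log2 fold change was 0.60 with an SE of 1.13 (adjusted p = 0.669). In FGF21 KO it stood at 16.5, 0.462, 0.499, 48.1 and 0.264 CPM and in dKO from 25.1 to 48.4 CPM (median 36.8), higher by 1.44 on the log2 scale (SE 1.17, adjusted p = 0.311). In iWAT it ran from 0.242 to 18.8 CPM in WT (median 0.346), from 5.28 to 13.3 CPM in UCP1 KO (median 8.23) and from 3.36 to 10.8 CPM in dKO (median 6.10), and stood at 0.668, 1.15, 94.7, 0.366 and 8.04 CPM in FGF21 KO. Again 1 or 2 libraries of each group with intact UCP1 stood far above the rest.

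Those libraries also stood highest in genes of skeletal muscle fibres. A muscle share of a fat library was taken as the median, over 14 fibre genes such as Acta1 and Ckm, of the level there relative to WT muscle. Fat and muscle levels came from separate fits with their own TMM factors, so the shares are approximate. Mean Cox6a2 in WT muscle was 462 CPM in the muscle fit and 706 CPM on the scale of all WT libraries. In WT BAT it was 27.6 and 30.0 CPM and in WT iWAT 3.58 and 3.53 CPM, so WT shares on the joint scale would be lower. The carried levels below do not depend on the muscle scale, which cancels. The muscle share was 14.1% in BAT WT replicate 5, the library with 124 CPM of Cox6a2, and 0.212% to 1.64% in the other WT libraries. It was 6.24% and 2.84% in FGF21 KO replicates 4 and 1, and 0.0409% to 0.0616% in the other 3, where Cox6a2 stood at 0.264 to 0.499 CPM. Multiplied by the level of Cox6a2 in WT muscle, such shares carry 0.981 to 65.0 CPM in WT BAT, where the measured level exceeded the carried level by -0.457 to 58.9 CPM (median 0.666). In FGF21 KO the excess was 0.0747 to 19.2 CPM. In UCP1 KO it was 27.7 to 54.7 CPM and in dKO 24.9 to 39.2 CPM. UCP1 KO replicates 3 and 5, with a muscle share of 0.0472% and 0.0471%, the lowest of their group, held 31.8 and 42.8 CPM of Cox6a2, and dKO replicates 1, 4 and 5, with 0.0367% to 0.0470%, held 25.1 to 39.4 CPM.

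In iWAT the measured level exceeded the carried one by 3.14 to 10.5 CPM in dKO, by -9.27 to 10.7 CPM in UCP1 KO (median 6.94), by -12.0 to 0.225 CPM in WT and by -70.2 to 1.54 CPM in FGF21 KO. The negative values came from the libraries with the highest muscle shares: WT replicate 4 (6.66%), UCP1 KO replicate 2 (4.88%) and FGF21 KO replicate 3 (35.7%), with a small one from WT replicate 3 (0.403%). In libraries with a muscle share under 0.2%, a limit set after the values were seen, Cox6a2 stood at 3.36 to 10.9 CPM without UCP1 and at 0.242 to 1.15 CPM with it. By the same calculation the share corresponds to 59.6 of 100.5 CPM of Cox7a1 in iWAT FGF21 KO replicate 3, to 11.1 of 23.4 CPM in WT replicate 4 and to 23.5 of 437 CPM in BAT WT replicate 5. These are calculated and not measured amounts, and in both iWAT libraries the calculation exceeded the measured Cox6a2 (165 against 94.7 CPM and 30.8 against 18.8 CPM). In BAT WT replicate 5 and FGF21 KO replicate 4 it fell short (65.0 against 124 CPM and 28.85 against 48.1 CPM). Excesses of 58.9 and 19.2 CPM thus also occurred in muscle-rich BAT libraries with intact UCP1. The source of Cox6a2 in these libraries was not tested.

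Fits that take the muscle genes into account called Cox6a2 higher without UCP1 in BAT. Leaving out the libraries with high fibre genes gave a log2 fold change of 3.92 for UCP1 KO against WT (adjusted p = 3.50e-07) and 6.31 for dKO against FGF21 KO (adjusted p = 4.00e-08). With the fibre genes as a covariate the values were 2.81 (adjusted p = 0.0168) and 3.22 (adjusted p = 0.00648), and without WT replicate 5 alone the first was 3.57 (adjusted p = 0.00853). In iWAT the covariate gave 4.16 for UCP1 KO against WT (adjusted p = 6.16e-06), and leaving out WT replicate 4 gave 4.01 (adjusted p = 0.00777), while leaving out the libraries with high lymphocyte genes gave 4.99 without a call (adjusted p = 0.0872). For dKO against FGF21 KO in iWAT the covariate turned the log2 fold change from -1.67 (SE 1.20, adjusted p = 0.290) to 2.67 (adjusted p = 0.00145). Without UCP1, Cox6a2 was still the lesser form in fat: it made up 5.84% ± 2.67 of its pair in BAT of UCP1 KO and 1.13% ± 0.542 in iWAT (n = 6 each).

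**Figure D4:**
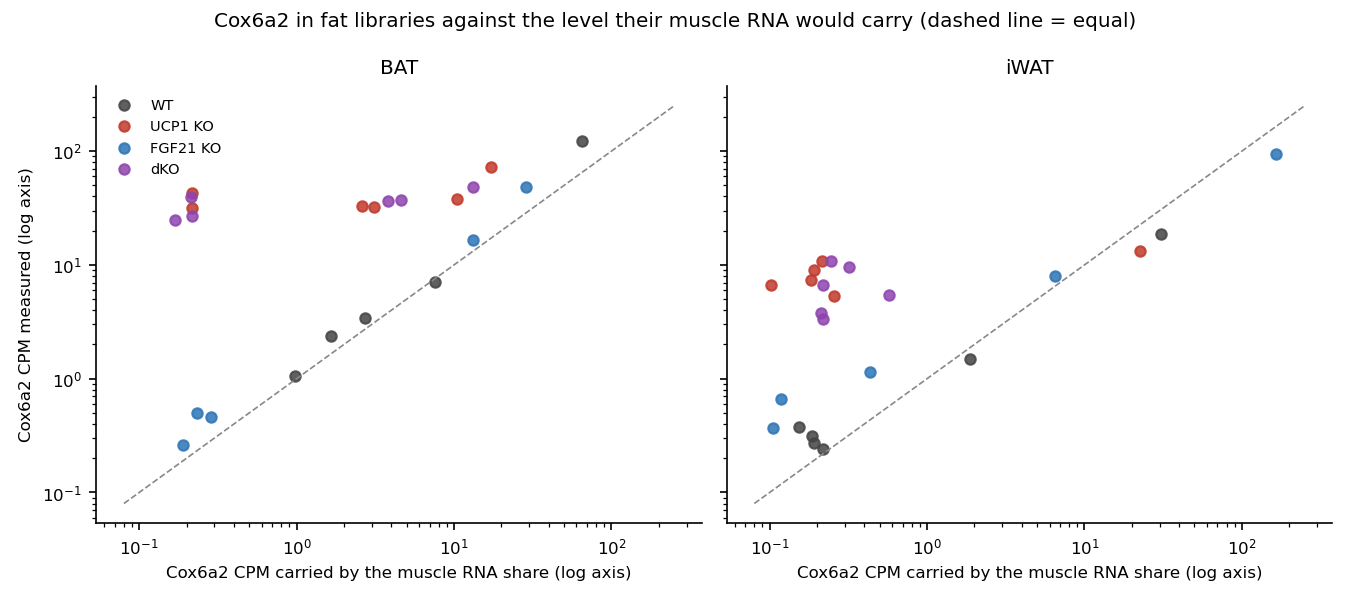
Cox6a2 measured in each BAT and iWAT library (CPM, vertical log axis) against the level that its share of muscle RNA would carry (CPM, horizontal log axis); the dashed line marks equal values. WT and FGF21 KO points rise along the line, to 124 CPM in BAT and 94.7 CPM in iWAT, and the UCP1 KO and dKO points of BAT, from 25.1 to 71.9 CPM, lie above it even where the carried level is near 0.2 CPM.

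The ratio of the 2 paralogues within a library does not depend on the scaling of that library. Of 64 ratio comparisons, 7 were called higher and 10 lower (two-sided exact permutation test, Benjamini-Hochberg over the 64). In iWAT the Cox7a1/Cox7a2 count ratio ran from 0.143 to 0.533 in WT (median 0.181) and from 0.838 to 1.14 in UCP1 KO (median 0.977). No libraries overlapped and the ratio was 4.37 times as high (exact permutation p = 0.00216, the smallest this design allows, adjusted p = 0.0198). Without the libraries with high lymphocyte genes the log2 difference was 1.90 instead of 2.13, and with so few libraries left neither this ratio nor Cox8b/Cox8a or Cox4i2/Cox4i1 was called (adjusted p = 0.267 each), nor were these ratios in dKO against FGF21 KO. In share of the pair, Cox7a1 went from 28.4% ± 11.6 to 62.2% ± 2.8 (SD, n = 6 each), against 66.3% ± 1.09 in WT BAT. The Cox8b/Cox8a ratio ran from 0.441 to 0.812 in WT (median 0.529) and from 1.04 to 1.34 in UCP1 KO (median 1.23), again without overlap and 2.13 times as high (exact permutation p = 0.00216, adjusted p = 0.0198). Cox8b thus went from 46.5% ± 5.45 to 64.9% ± 2.14 of its pair. In both pairs the SD of the share was smaller in UCP1 KO.

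The Cox4i2/Cox4i1 ratio in iWAT moved in the other direction, from 0.00271 to 0.00733 in WT (median 0.00437) to 0.00117 to 0.00201 in UCP1 KO (median 0.00170). Without overlap, it was 0.381 times the WT ratio (exact permutation p = 0.00216, adjusted p = 0.0198) in the depot where Cox4i1 rose and Cox4i2 was not called. The Cox6a2/Cox6a1 ratio was 4.44 times as high but its groups overlapped (exact permutation p = 0.0736, adjusted p = 0.205). Without WT replicate 4 the log2 difference rose from 2.15 to 3.11 and was called (adjusted p = 0.0173). In dKO against FGF21 KO the ratios were 4.18 times as high for Cox7a1/Cox7a2, 2.12 times for Cox8b/Cox8a (adjusted p = 0.0198 each, exact permutation, no overlap) and 0.449 times for Cox4i2/Cox4i1 (adjusted p = 0.0346). The last call was lost in 9 of 11 single-library omissions, all but those of dKO replicate 4 and FGF21 KO replicate 3, with the log2 difference between -1.31 and -1.06.

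In BAT the ratios of the subunit VIIa and VIII pairs stayed within 0.885 to 0.945 times the level with UCP1, while those of Cox4i2/Cox4i1 and Cox6a2/Cox6a1 differed more. Cox7a1/Cox7a2 stood at 1.25, 1.17, 1.10, 1.15 and 1.20 in WT and from 0.898 to 1.09 in UCP1 KO (median 1.06). The groups did not overlap, by a narrow margin, and the ratio was 0.885 times that of WT (exact permutation p = 0.00216, adjusted p = 0.0198). For dKO against FGF21 KO this ratio was 0.919 times as high with overlapping groups, and was not called (exact permutation, adjusted p = 0.104). Cox8b/Cox8a was not called in either comparison, at 0.923 and 0.945 times (adjusted p = 0.145 and 0.312). Cox4i2/Cox4i1 stood at 0.00280, 0.00298, 0.00315, 0.00316 and 0.00310 in WT and from 0.00187 to 0.00253 in UCP1 KO, 0.715 times as high without overlap (exact permutation p = 0.00433, adjusted p = 0.0213). It was 0.590 times as high in dKO as in FGF21 KO (adjusted p = 0.0198). Cox6a2/Cox6a1 was 9.39 times as high in UCP1 KO (exact permutation, adjusted p = 0.112; without WT replicate 5 a log2 difference of 4.41 and adjusted p = 0.0234) and 20.5 times in dKO (adjusted p = 0.0489), the latter call being lost in 10 of 11 single-library omissions, all but that of FGF21 KO replicate 4 (log2 difference 3.64 to 5.50). Without the libraries with high fibre genes no BAT ratio was called, fewer libraries being left.

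**Figure D5:**
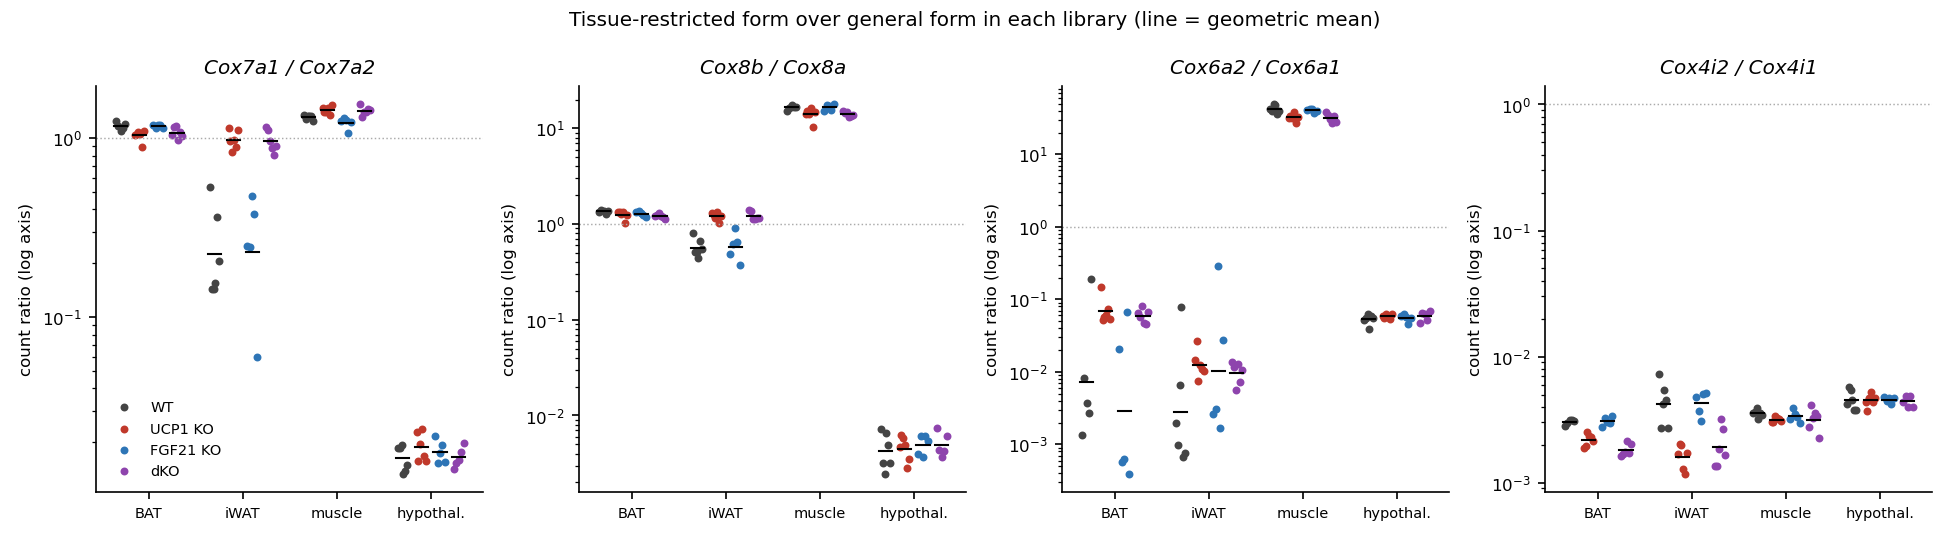
Count ratio of Cox7a1, Cox8b, Cox6a2 or Cox4i2 to its general partner (log axis) in each of the 90 libraries, by tissue and genotype. Lines are geometric means and the dotted line marks a ratio of 1. In iWAT, UCP1 KO and dKO points of Cox7a1/Cox7a2 lie between 0.811 and 1.15, above all WT and FGF21 KO points (0.0595 to 0.533), and those of Cox4i2/Cox4i1 lie mostly below.

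Whether the effect of UCP1 loss differed between iWAT and BAT was tested directly in a fit of both depots. For 6 of the 8 genes the log2 fold change in iWAT exceeded that in BAT, beside 27.7% of 17186 genes called higher and 52.6% called in either direction. The difference was 3.47 for Cox7a1 (SE 0.44, adjusted p = 1.96e-08), 2.53 for Cox8b (SE 0.28, adjusted p = 8.40e-10), 1.78 for Cox6a1 (SE 0.21), 1.33 for Cox8a (SE 0.20), 1.31 for Cox7a2 (SE 0.19) and 1.25 for Cox4i1 (SE 0.22). Under library totals these 6 stayed called in the same direction but shrank, to 2.59, 1.67, 0.92, 0.47, 0.44 and 0.39 in the same order. Cox6a2 was not called (0.75, SE 1.62, adjusted p = 0.721). Cox4i2 was not called at 0.35 (SE 0.20, adjusted p = 0.134), was called without iWAT WT replicate 5 (0.46) or without iWAT UCP1 KO replicate 5 (0.44), and turned to -0.56 under library totals (adjusted p = 0.0219).

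Muscle showed small changes. Cox7a1 ran from 154 to 182 CPM in WT (median 168) and from 160.0 to 210.3 CPM in UCP1 KO (median 197). The groups overlapped, and the log2 fold change of 0.21 (SE 0.05, adjusted p = 0.0147) was the only call among the 8 genes, beside 5.89% of 15120 genes called higher, 6.42% lower and 12.3% in either direction. A fit with the compared groups alone made no call among the members (Cox7a1 0.21, adjusted p = 0.0590). Omitting WT replicate 1, UCP1 KO replicate 2 or 6 or FGF21 KO replicate 1 added Cox8a, and omitting WT replicate 2 added Cox6a1. In dKO against FGF21 KO, 3 of 8 genes were higher, beside 3.63% of genes called higher, 4.13% lower and 7.76% in either direction: Cox7a1 by 0.27 (SE 0.06, adjusted p = 0.00466), Cox6a1 by 0.29 (SE 0.09, adjusted p = 0.0348) and Cox8a by 0.25 (SE 0.07, adjusted p = 0.0238). Cox7a1 stood there at 137 to 163 CPM in FGF21 KO and 178 to 193 CPM in dKO, without overlap, and the groups of Cox6a1 did not overlap either. The other 2 calls were fragile. Leaving out dKO replicate 6 or FGF21 KO replicate 2, 3 or 5 ended both, and leaving out dKO replicate 1 or 4 or FGF21 KO replicate 4 ended that of Cox6a1, while leaving out dKO replicate 4 or FGF21 KO replicate 1 added Cox4i1, so that 1 to 4 genes were called over all omissions.

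All 4 ratios in muscle were called for UCP1 KO against WT, though every pair of groups overlapped. Cox7a1/Cox7a2 ran from 1.25 to 1.35 in WT (median 1.33) and from 1.35 to 1.54 in UCP1 KO (median 1.44), 1.10 times as high (exact permutation p = 0.00433, adjusted p = 0.0213). In dKO it was 1.17 times as high as in FGF21 KO, without overlap (adjusted p = 0.0213). The other ratios were lower. Cox6a2/Cox6a1 ran from 35.8 to 48.8 in WT (median 40.9) and from 27.3 to 37.8 in UCP1 KO (median 32.2), 0.770 times as high (exact permutation p = 0.00433, adjusted p = 0.0213). Cox8b/Cox8a ran from 15.2 to 17.5 in WT (median 16.8) and from 10.3 to 16.3 in UCP1 KO (median 14.5), 0.843 times as high (adjusted p = 0.0213), and Cox4i2/Cox4i1 was 0.890 times as high (adjusted p = 0.0297). The call for Cox8b/Cox8a was lost without WT replicate 3, 4, 5 or 6 and lay between -0.29 and -0.16 on the log2 scale, and that for Cox4i2/Cox4i1 was lost without WT replicate 3, 5 or 6. Without UCP1 KO replicate 5, the lowest in Cox8b/Cox8a, the log2 difference was the smallest of these.

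In dKO against FGF21 KO, Cox8b/Cox8a in muscle was 0.853 times as high (exact permutation, adjusted p = 0.0213) and Cox6a2/Cox6a1 0.789 times (adjusted p = 0.0346). The first call was lost without dKO replicates 2 to 6 or FGF21 KO replicates 2 or 5, each left out alone, and the second in 10 of 11 omissions, all but that of dKO replicate 1. Fibre genes also moved in muscle of UCP1 KO, 2 of 14 higher and 3 lower, beside 5.89% of all genes called higher and 6.42% lower. Myh1, a fast myosin heavy chain, went from 4781 ± 522 to 5975 ± 784 CPM (log2 fold change 0.32, SE 0.07, adjusted p = 0.00624) and Tnnt3, fast troponin T, from 19350 ± 1544 to 17200 ± 1050 CPM (-0.17, SE 0.05, adjusted p = 0.0223; n = 6 each). Their part in the ratios was not tested.

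In hypothalamus none of the 8 genes was called for UCP1 KO against WT (edgeR, 0.0555% of 18020 genes called, 0.0166% higher and 0.0388% lower, none of the 8 at an unadjusted p under 0.05 and none called by DESeq2), with log2 fold changes from 0.02 to 0.24. The same held for dKO against FGF21 KO (0.0555% of genes called), from -0.14 to 0.03. None of the 4 ratios was called there. Cox8b and Cox7a1 were close to the floor of the data. Cox8b rested on 12 to 48 counts per library and Cox7a1 on 52 to 123. Their standard errors were 0.25 for Cox8b and 0.12 for Cox7a1 in UCP1 KO against WT. The general forms were measured tightly, Cox7a2 for example at 99.5 ± 1.35 CPM in WT and 102 ± 5.38 CPM in UCP1 KO (SD, n = 6 each).

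Loss of FGF21 was tested with UCP1 intact (FGF21 KO against WT) and without it (dKO against UCP1 KO), and no member was called in any tissue. The background was small as well, at 0.0250%, 0.00597%, 0.0198% and 0.00555% of genes in BAT, iWAT, muscle and hypothalamus for the first contrast and 1.73%, 0.0358%, 0.0% and 0.0111% for the second. In BAT 0.0187% of genes were higher and 0.00624% lower in the first contrast and 0.767% and 0.967% in the second, and in muscle 0.00661% and 0.0132% in the first. DESeq2 called no member either, but gave Cox6a2 no adjusted p in BAT. At an unadjusted p under 0.05 edgeR gave only Cox7a1 in muscle for the first contrast (-0.12) and Cox4i1, Cox6a1 and Cox8a in hypothalamus for the second (-0.08, -0.10 and -0.09). In iWAT Cox7a1 differed by 0.17 (SE 0.41) between FGF21 KO and WT and by -0.12 (SE 0.39) between dKO and UCP1 KO, differences smaller than their errors. In BAT the errors were smaller: Cox7a1 differed by 0.11 (SE 0.09) and 0.17 (SE 0.08), and Cox8b by -0.08 (SE 0.10) and 0.00 (SE 0.09). No ratio was called in either contrast. The interaction of both losses called no member (0.0% of genes called in each tissue, none by DESeq2), and at an unadjusted p under 0.05 only Cox7a1 in hypothalamus (-0.38).

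With TMM factors, other nuclear genes listed as subunits of the complex gave the same signs as most members. Of 12 listed genes, 10 were tested in fat. Ndufa4l2 of this list also stands among the 10 pericyte and smooth muscle genes. In iWAT of UCP1 KO 9 were higher and none lower, with a median log2 fold change of 1.05, against -0.13 for all genes. Cox5a, which encodes subunit Va, rose from 196 ± 37.5 to 601 ± 91.3 CPM (log2 fold change 1.62, SE 0.18, adjusted p = 6.02e-07, n = 6 each). In BAT 8 were lower and none higher with TMM factors (median -0.38), led by Ndufa4, at 790.1 ± 51.4 CPM in WT (n = 5) and 524 ± 54.9 in UCP1 KO (n = 6), a log2 difference of -0.59 (SE 0.07, adjusted p = 1.33e-07). The calls of this list were not examined under library totals, where the BAT median of all genes moved from -0.02 to 0.41. In muscle 2 of 10 were higher, among them Cox6b1 at 0.20 (SE 0.04, adjusted p = 0.00232), and in hypothalamus none of 11 was called. For dKO against FGF21 KO the counts were 9 higher in iWAT, 8 lower and 1 higher (Cox7a2l, 0.24, SE 0.05) in BAT and 2 higher in muscle. Of all genes, UCP1 KO against WT called 22.3% higher in iWAT, 29.9% lower in BAT and 5.89% higher in muscle. For dKO against FGF21 KO these shares were 16.8%, 28.0% and 3.63%.

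Genes for assembly of the complex and copper delivery, 25 of them tested, gave 22 higher and none lower in iWAT of UCP1 KO, with a median log2 fold change of 0.84. Lrpprc, which stabilises mitochondrial messenger RNA, rose from 81.1 ± 13.1 to 214 ± 21.9 CPM (log2 fold change 1.40, SE 0.12, adjusted p = 5.15e-08, n = 6 each). In BAT the list went in both directions with TMM factors, 3 higher and 13 lower (median -0.17). The calls of this list, too, were not examined under library totals. Of all genes in BAT, 30.2% were called higher, 29.9% lower and 60.1% in either direction. Lrpprc was higher at 0.21 (SE 0.06, adjusted p = 0.00743) and Pet100, an assembly factor, lower at -1.01 (SE 0.08, adjusted p = 6.76e-10). In muscle 3 were higher and 1 lower, Higd2a at -0.21 (SE 0.05, adjusted p = 0.00795), and in hypothalamus none of 25 was called. For dKO against FGF21 KO, 20 were higher in iWAT, 4 higher and 12 lower in BAT and 2 higher in muscle. Of all genes, this contrast called 37.3% in iWAT, 57.2% in BAT and 7.76% in muscle in either direction. UCP1 KO against WT called 46.3% in iWAT and 12.3% in muscle. Among the 8 paralogues the median with TMM factors was 1.16 in iWAT and -0.43 in BAT, beside -0.13 and -0.02 for all genes.

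The genes whose pattern was most like each paralogue were ranked by Pearson r of log2(CPM + 1) over the 16 group means, a description without a test, in which groups share tissue and library preparation. Cox7a1 was closest to Ndufs4 and Uqcrb, subunits of complexes I and III, and to Afg3l1 (r = 0.999 each). Cox7a2 was closest to Dlst and Dld, components of the 2-oxoglutarate dehydrogenase complex, and to Ptges2 (r = 0.999, 0.997 and 0.997). Cox4i1 was closest to the complex I gene Ndufb6, to Aurkaip1 and to Ndufab1 (r = 0.999, 0.999 and 0.998). Cox8a was closest to Aldh9a1, Cox6a1 and Hdhd3 (r = 0.997 each). Cox6a1 was closest to Tfe3, Cox8a and Hdhd3 (r = 0.997, 0.997 and 0.996). Cox8b was closest to Trap1, Bag1 and Mycbp (r = 0.999, 0.998 and 0.998). Cox6a2 was closest to Gm572, Yipf7 and Adssl1 (r = 0.990, 0.989 and 0.989). Cox4i2 was closest to Clec14a, an endothelial membrane protein gene, the transcription factor gene Gata2 and Foxn2 (r = 0.981, 0.980 and 0.979). Within the 23 iWAT libraries Cox7a1 was closest to Cpt1b, the muscle and brown-fat carnitine palmitoyltransferase, and to Fabp3, a fatty acid binding protein (r = 0.995 and 0.993). Cox8b was closest there to Sdhb (r = 0.992), Cox6a2 to Txlnb (r = 0.978), and Cox4i2 had no close partner, Hhat being nearest at r = 0.772. Nearest in iWAT were also Cox6b1 to Cox7a2 (r = 0.997), Hagh to Cox8a (0.99), Fam195a to Cox6a1 (0.996) and Ndufb9 to Cox4i1 (0.996).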

How the data were processed

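RNA of 90 libraries (stranded poly(A) libraries, 100 bp paired reads, per the labels' protocols) was aligned with STAR to mm10 and counted per gene with HTSeq, per the submitters' processing notes (versions, annotation and strand setting not given in the sources used here). Each deposited file holds the authors' raw counts of 1 library. Of 32765 rows per file, 2 name no gene (at most 0.22% of counts), and 66 names occurring again after trimming were summed. Groups come from the labels. Replicate numbers follow deposit order and pair nothing. The members, gene lists and cut-offs for marker genes were chosen with earlier results of these data known.

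Each tissue was fitted alone with edgeR 4.0.16 (R 4.3.3): TMM factors, filterByExpr, robust quasi-likelihood F test, all 4 genotypes. Adjusted p is Benjamini-Hochberg over the tested genes of a tissue and contrast, called under 0.05; SE is the log2 difference over the root of F. Levels are CPM on TMM library sizes, comparable within a fit only. Ratios are log2 count ratios with 0.5 counts added, compared by a two-sided exact permutation test. Named genes are the 8 members, from each list the called gene of smallest p per direction, Ucp1 and Fgf21. By likeness, the 3 genes of highest r over the group means are named for each member, and within iWAT the nearest 1 or 2. Outside this rule stand Acta1 and Ckm, named as examples of a list, and Ndufa4l2, which stands in more than 1 list. Ucp1 counts of single libraries and overlapping neighbours stand outside it too. Alternatives were DESeq2 1.42.0, RLE factors, no filter, compared groups only, omission of each library or of those with high markers of another tissue, and marker covariates; library totals, and omissions for the tissue comparisons, were added after seeing the data. Transcript lengths and neighbours are of GENCODE vM21, and promoters of RefSeq (5 of 8 members matched). Coding sequences were compared with Biopython 1.88, and whole transcripts were searched with blastn 2.17.0. Depth was 18.1 to 69.9 M counts per library, and precision is given by the spread between libraries.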

Additional observations from a re-analysis of the deposited data

Results flagged for a closer look

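For 6 genes the effect of UCP1 loss differed between iWAT and BAT in the joint fit (edgeR, UCP1 KO against WT, iWAT minus BAT, log2): 3.47 for Cox7a1, 2.53 for Cox8b, 1.78 for Cox6a1, 1.33 for Cox8a, 1.31 for Cox7a2 and 1.25 for Cox4i1. Each stayed called under library totals, at smaller size. Of 17186 genes tested in this joint fit, 27.7% were called higher and 52.6% in either direction.

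In 5 of 64 groups 1 library lay apart in a log2 ratio by Dixon's criterion, which chance meets in about 1 of 20 groups. BAT UCP1 KO replicate 5 was lowest of its group in Cox7a1/Cox7a2 (-0.16) and in Cox8b/Cox8a (0.052). Muscle UCP1 KO replicate 5 was lowest in Cox8b/Cox8a (3.37). BAT UCP1 KO replicate 1, whose muscle share of 3.72% was the highest of its group, was highest in Cox6a2/Cox6a1 (-2.74), and hypothalamus WT replicate 4, a library with high choroid plexus genes, was lowest in Cox6a2/Cox6a1 (-4.67). The part of those genes was not tested.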

How the results depend on the processing

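With library totals, log2 fold changes turned in BAT for UCP1 KO against WT in Cox7a1 (0.068), Cox7a2 (0.24) and Cox4i1 (0.37) and for dKO against FGF21 KO in Cox7a1 (0.068) and Cox7a2 (0.19). The iWAT minus BAT difference turned for Cox4i2 (-0.56), and WT iWAT minus muscle turned for Cox4i1 (0.49), Cox4i2 (0.78) and Cox7a2 (0.70). RLE factors left every member on its side of the threshold, and of 163 DESeq2 values 1 changed side. Cox6a2 turned in iWAT dKO against FGF21 KO with the muscle covariate (2.67), in WT BAT minus iWAT (-0.51) and BAT minus hypothalamus (-0.63) without the BAT WT libraries with high fibre genes, and in the latter without BAT WT replicate 5 (single omissions -0.028 to 3.26); DESeq2 gave it no adjusted p in BAT.

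Members called in muscle numbered 0 for UCP1 KO against WT with the compared groups only, 1 to 2 with single libraries omitted, and 1 to 4 for dKO against FGF21 KO. Without the libraries with high marker genes, 10 ratio calls were lost, with fewer libraries and so larger smallest p values. For UCP1 KO against WT the log2 differences were then -0.18 (Cox7a1/Cox7a2) and -0.45 (Cox4i2/Cox4i1) in BAT, and 1.90, 1.02 and -0.97 (Cox7a1/Cox7a2, Cox8b/Cox8a, Cox4i2/Cox4i1) in iWAT. For dKO against FGF21 KO they were 6.73 (Cox6a2/Cox6a1) and -0.82 (Cox4i2/Cox4i1) in BAT, and 2.46, 1.14 and -1.42 in iWAT. Single omissions that changed a ratio call gave, for UCP1 KO against WT, Cox6a2/Cox6a1 2.62 to 4.41 in BAT and 1.73 to 3.11 in iWAT, and in muscle Cox8b/Cox8a -0.29 to -0.16 and Cox4i2/Cox4i1 -0.195 to -0.141. For dKO against FGF21 KO they gave Cox6a2/Cox6a1 3.64 to 5.50 in BAT, Cox4i2/Cox4i1 -1.31 to -1.06 in iWAT, and in muscle Cox8b/Cox8a -0.264 to -0.205 and Cox6a2/Cox6a1 -0.399 to -0.295. Adding 5 counts or summing CPM changed no ratio call. The cause of these changes was not tested. Where libraries were left out the exact test had fewer splits, so a call lost there does not show a smaller difference. No paired analysis was possible because replicate numbers are absent from the labels and libraries are not tied to mice.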
